A study of Mus musculus with 24 samples.

Results

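Ganglia of camptothecin-injected mice taken 36 h after sciatic nerve crush were compared with ganglia of camptothecin-injected mice taken at 18 h, the whole time span measured under the drug. The comparison rested on 6 of the 24 samples in the labels, 3 libraries at 36 h and 3 at 18 h, chosen by treatment and time alone. All groups were dorsal root ganglia (DRG) of wild-type C57/BL6 mice, 12 weeks old, with a crushed sciatic nerve. Camptothecin mice received 2 mg/kg of the drug into the peritoneum shortly after the crush. Vehicle mice were injured and injected without it and supplied the matching comparison of 3 libraries at 36 h with 3 at 18 h. Of the 24 samples, 19 had a count column and were analysed here, and the groups held no uninjured ganglia, so every value describes a change between 2 times after injury. The labels do not tie libraries to separate animals, and p-values therefore measure the spread between these libraries.

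Camptothecin traps topoisomerase I on DNA, the enzyme that relaxes supercoils ahead of RNA polymerase. Sensory neurons of the ganglion answer damage to their peripheral axon with a slow change of transcription: growth-associated and stress-peptide genes are turned on, and genes for transmission, ion channels and the axonal cytoskeleton are turned down. Whole ganglia also hold satellite glia, Schwann cells, macrophages and connective tissue, so fewer cells of a type and less RNA per cell cannot be told apart in these bulk libraries.

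The promoters of 4 genes that lead the results are shown because their transcripts moved most, or belong to the injury peptides, and they differ in the short motifs they hold. Each is the RefSeq window of the GRCm38.p6 build, running from 250 bases before the start site to 50 after it, read along the gene's own strand. The start site of the window lies at -97 from the start of the counted transcript for Gal, so that this window ends short of it, at 14 for Sprr1a and at 0 for Npy and Areg. Capitals mark matches, on either strand, to the AP-1 motif TGANTCA, the cyclic AMP response element TGACGTCA and the STAT motif TTCCNGGAA. They also mark the TATA box TATAAA, which was searched on the gene's own strand only. Sprr1a lies at chr3:92485832-92486131 on the minus strand, Gal at chr19:3414495-3414794 on the minus strand, Npy at chr6:49822460-49822759 on the plus strand and Areg at chr5:91139349-91139648 on the plus strand.
Sprr1a: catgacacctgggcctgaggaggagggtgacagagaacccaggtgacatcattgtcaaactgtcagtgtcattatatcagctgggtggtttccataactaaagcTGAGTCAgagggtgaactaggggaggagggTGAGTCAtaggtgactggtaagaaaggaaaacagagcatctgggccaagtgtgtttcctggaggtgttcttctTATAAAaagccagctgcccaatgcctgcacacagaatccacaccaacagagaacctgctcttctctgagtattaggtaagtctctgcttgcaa
Gal: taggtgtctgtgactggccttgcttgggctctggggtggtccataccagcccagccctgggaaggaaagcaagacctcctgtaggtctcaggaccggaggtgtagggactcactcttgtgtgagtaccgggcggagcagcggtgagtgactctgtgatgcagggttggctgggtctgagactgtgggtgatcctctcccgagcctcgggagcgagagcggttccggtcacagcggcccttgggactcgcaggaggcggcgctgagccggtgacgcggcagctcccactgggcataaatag
Npy: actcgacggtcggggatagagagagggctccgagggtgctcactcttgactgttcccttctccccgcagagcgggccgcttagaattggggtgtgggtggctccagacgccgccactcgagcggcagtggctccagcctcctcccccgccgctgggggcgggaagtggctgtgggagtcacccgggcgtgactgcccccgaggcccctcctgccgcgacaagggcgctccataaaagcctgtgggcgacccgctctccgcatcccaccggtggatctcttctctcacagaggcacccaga
Areg: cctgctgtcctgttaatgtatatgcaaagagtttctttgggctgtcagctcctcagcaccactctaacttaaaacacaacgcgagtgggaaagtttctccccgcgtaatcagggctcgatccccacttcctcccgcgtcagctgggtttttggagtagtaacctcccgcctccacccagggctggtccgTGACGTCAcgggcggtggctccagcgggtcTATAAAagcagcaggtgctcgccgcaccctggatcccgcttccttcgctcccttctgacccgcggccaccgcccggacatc
The Sprr1a window held 2 AP-1 matches, whose first bases lie at -146 and -116 from the start site, and a TATA match at -43. The Areg window held a TGACGTCA match at -61 and a TATA match at -31, whereas the Gal and Npy windows held none of the 4 motifs. Among the 32851 windows searched, AP-1 was matched in 7.81%, TGACGTCA in 1.79%, the STAT motif in 1.15% and TATAAA in 8.32%. The set of windows searched covered 39 of the 64 symbols that were higher at 36 h and 16 of the 28 that were lower. This set was not complete, and the remaining symbols were not searched. Their absence from the set does not show that they lack a promoter window. AP-1 was matched in 6 of the 39 and 4 of the 16, TGACGTCA in 0 and 1, and the STAT motif in 1 and 0. TATAAA was matched in 4 and 2. The E-box CACGTG, found in 7.15% of the windows searched, was matched in 8 and 1. The percentages are shares of windows, whereas these counts are of symbols, so the percentages are not a like base. Enrichment was not tested. A match describes the letters of a window and not the binding of a factor.

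Library totals were 9322357 to 10437380 counts at 36 h and 6637121 to 10118815 at 18 h, and levels are given as CPM, the counts of a transcript scaled to a common library total with edgeR's TMM factors. Counts were kept per transcript, so a gene can have several. Across transcripts, the rank correlation between GC content and a library's deviation from the mean level of all 19 libraries was 0.251 to 0.329 at 36 h, against -0.009 to 0.22 at 18 h, and these ranges did not overlap. Its part in the results was not tested beyond the GC-corrected fit given with the alternatives.

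At 36 h, 67 transcripts were higher and 28 were lower than at 18 h among 18606 tested, by the quasi-likelihood test of edgeR at an adjusted p under 0.05 (Benjamini-Hochberg). These 95 transcripts were 0.511% of those tested, with 0.36% higher and 0.15% lower. The libraries of the 2 times did not overlap for any of the 95, while 9.62% of all tested transcripts lay apart with 36 h higher and 8.75% with 36 h lower. The log2 fold changes of the rises ran from 0.47 to 3.93 (median 1.00) and those of the falls from -3.48 to -0.49 (median -0.84), while the median over all transcripts was -0.02. The mean at 24 h lay between the means of the other times for 65 of the 67 rises and 25 of the 28 falls. These transcripts were called for the distance between those other means, which makes a mean between them likely. The share of 45.1% over all transcripts is therefore not a like base, and a gradual course was not tested. The counts depended on single libraries: 31 rose and 5 fell without 18 h library 2, 35 and 7 without 18 h library 3, 34 and 7 without 36 h library 1, and 16 fell without 36 h library 3. Of 42 named transcripts that passed, 15 also passed without each library in turn. DESeq2 called 210 higher and 173 lower, so that 54.8% of its calls were higher against 70.5% here. The excess of rises was absent with the replicate block, at 62 higher and 61 lower (50.4% higher), and turned with the GC offset and replicate block, at 74 higher and 78 lower (48.7% higher).

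Genes of axon regeneration and injury peptides stood among the largest rises. Sprr1a, a small proline-rich protein that promotes axon outgrowth, reached 789, 892 and 641 CPM in the 36 h libraries, against 44.0, 86.7 and 154 CPM in the 18 h libraries. Every 36 h library exceeded every 18 h library several-fold, and the 4 libraries at 24 h, at 148, 158, 98.6 and 168 CPM, overlapped the 18 h range. In edgeR the log2 fold change was 3.02 ± 0.37 (SE), at an adjusted p of 0.000182. Its transcript lies at chr3:92483952-92485895.

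Galanin, a neuropeptide that injured sensory neurons make, was at 210, 228 and 201 CPM at 36 h and at 36.0, 31.9 and 51.8 CPM at 18 h. The groups were far apart, and the 24 h libraries, at 48.3 to 68.1 CPM, again overlapped the 18 h range. Gal rose by 2.42 ± 0.25 log2 units (SE), at an adjusted p of 7.09e-05 in edgeR. Neuropeptide Y was at 20.0, 17.2 and 19.0 CPM at 36 h and at 4.08, 3.31 and 9.54 CPM at 18 h. The 18 h libraries differed among themselves by more than the 36 h libraries did. Npy rose by 1.73 ± 0.32 log2 units (SE), at an adjusted p of 0.0093 in edgeR, and did not pass in every fit that left out a library (highest adjusted p = 0.0936). Without 18 h library 4 its log2 fold change was 2.35.

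Neurotensin, a peptide of the nervous system and gut, also rose: Nts had 85.3, 109 and 97.6 CPM at 36 h and 33.0, 35.1 and 58.4 CPM at 18 h. Its adjusted p of 0.0498 lay just under the threshold, and it did not pass in every fit that left out a library (highest adjusted p = 0.228). Of 14 measured members of the injury neuropeptide list, Gal, Npy and Nts were higher and none was lower. Of all tested transcripts 0.36% were higher and 0.15% lower. Lists hold 1 transcript a symbol, the one with the highest level. The list median was 0.44, against 0.02 over all symbols taken in that way. Crh, the corticotropin-releasing hormone, had a log2 fold change of 1.97 with an adjusted p of 0.0706, and Calcb, a form of calcitonin gene-related peptide, had -0.74 with an adjusted p of 0.0866.

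**Figure D1:**
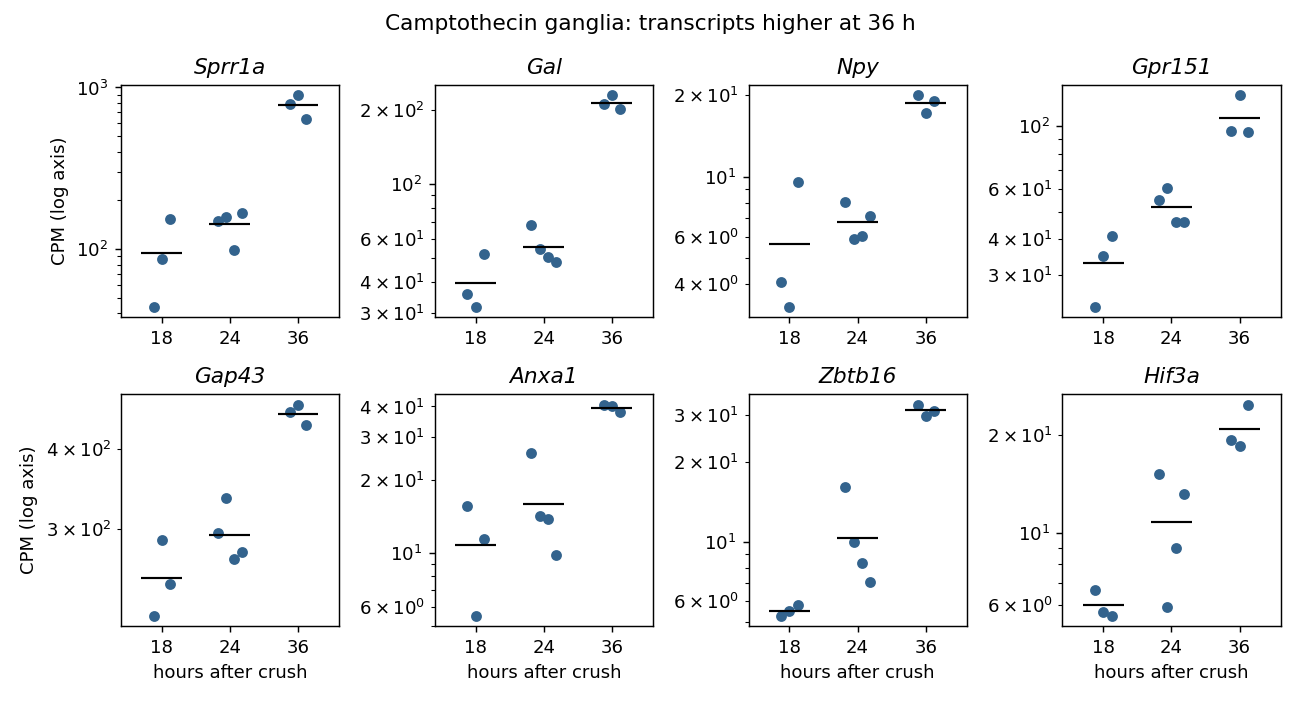
Levels in CPM, on log axes, of 8 transcripts that were higher at 36 h, in camptothecin ganglia at 18, 24 and 36 h after crush, with each point a library and each line the group mean. All 3 libraries at 36 h lie above all 3 at 18 h in each panel, from Sprr1a at 641 to 892 CPM to Hif3a at 18.5 to 24.9 CPM.

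Of 48 measured members of the regeneration-associated list, 7 were higher and none was lower, and the list median was 0.21. Of all tested transcripts 0.36% were higher and 0.15% lower, so a list without a lower member is common. Apart from Sprr1a, Gal and Npy these were Anxa1, Gpr151, Cckbr and Gap43, so the list shares Gal and Npy with the peptides. Gpr151, an orphan receptor of sensory and habenular neurons, was at 96.4, 128 and 95.6 CPM at 36 h and at 23.1, 34.95 and 40.9 CPM at 18 h. The 36 h libraries were all above the 18 h ones, and edgeR gave a log2 fold change of 1.69 ± 0.19 (SE) at an adjusted p of 7.09e-05. Gap43, a membrane protein of growth cones, was at 458, 470 and 436 CPM at 36 h and at 220, 288 and 247 CPM at 18 h. This smaller rise of 0.85 ± 0.13 log2 units (SE) had an adjusted p of 0.00232 in edgeR and passed without each library in turn. Anxa1, a membrane-binding annexin, rose by 1.89 and Cckbr, a cholecystokinin receptor, by 1.41 on the log2 scale. Growth cone and microtubule genes had 2 of 26 members higher, Gap43 and the beta tubulin Tubb6, which rose by 1.12, and none lower.

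The transcription factors often used to mark the injury response did not pass. Atf3, a stress-induced factor of the ATF family, was at 484, 488 and 445 CPM at 36 h and at 521, 542 and 493 CPM at 18 h, with an adjusted p of 0.762. Jun, a subunit of AP-1, was at 336, 376 and 320 CPM at 36 h and at 441, 491 and 445 CPM at 18 h. The libraries of Jun and of Atf3 did not overlap, which held with 36 h lower for 8.75% of all tested transcripts. For Jun the log2 fold change of -0.42 ± 0.10 had an adjusted p of 0.0621 in edgeR. Jun passed in 6 of 15 alternative settings, with DESeq2 at 0.000463, limma-voom at 0.0223 and the replicate block at 0.0458, and its adjusted p was at most 0.307. None of 10 AP-1 family transcripts passed, which is not a result about the family where 0.511% of all tested transcripts were called. The neurodevelopmental factor Sox11 had a log2 fold change of 0.29 (adjusted p = 0.437).

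Other large rises were in less familiar genes. Adgrd1, an adhesion G protein-coupled receptor, was at 111, 147 and 110 CPM at 36 h and at 26.2, 33.6 and 40.5 CPM at 18 h. Its log2 fold change was 1.87 (adjusted p = 7.09e-05, edgeR). Aim1, a crystallin-domain protein, rose by 1.88 and Tmem98, a membrane protein, by 1.91, and both passed without each library in turn. Acvr1c, a receptor of the activin and nodal ligands, rose by 2.33 with an adjusted p of 0.0262, and its 18 h libraries held 0.907, 0.801 and 5.80 CPM. Without 18 h library 4 its log2 fold change was 3.86, and the call was lost without 18 h library 2 or 3 or 36 h library 1 or 2 (highest adjusted p = 0.148). Xdh, xanthine dehydrogenase of purine breakdown, rose by 1.52. Lipn, a lipase gene, had 41, 48 and 35 counts at 36 h against 0, 0 and 6 counts at 18 h, and is named here as the largest fold change though it lies under the level of 5 CPM used to choose genes.

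Areg fell most among the transcripts at 5 CPM or more. Amphiregulin, a ligand of the EGF receptor, was at 1.59, 0.788 and 1.45 CPM at 36 h and at 10.1, 17.5 and 14.2 CPM at 18 h. The groups lay far apart, and the 24 h libraries, at 5.29 to 14.2 CPM, overlapped the 18 h range. In edgeR the log2 fold change of Areg was -3.44 ± 0.39 (SE), at an adjusted p of 7.09e-05. Of 12 measured ErbB ligands and receptors Areg alone passed, and its receptor Egfr had a log2 fold change of 0.82 with an adjusted p of 0.0884.

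Shh, the secreted hedgehog ligand, was at 45.8, 62.5 and 53.1 CPM at 36 h and at 152, 136 and 104 CPM at 18 h. Shh fell by 1.28 ± 0.17 log2 units (SE), at an adjusted p of 0.000527 in edgeR, and passed without each library in turn. Car2, a carbonic anhydrase of some sensory neurons, was at 81.4, 107 and 123 CPM at 36 h and at 188, 195 and 178 CPM at 18 h, a fall of 0.86. Ddit3, the stress factor also named CHOP, fell by 0.87, and it was the only member of 30 endoplasmic reticulum and integrated stress genes to pass. A transcript of 5 exons from Homer1, a gene known for a scaffold of glutamate synapses, fell by 1.11. Which form of the protein that transcript encodes was not examined. Omg, a myelin-associated inhibitor of neurite growth, fell by 0.93. Neither Homer1 nor Omg passed in every edgeR fit that left out a library (highest adjusted p = 0.185 and 0.168).

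Neurofilaments and several channel and receptor genes were lower at 36 h. All 3 subunits of the neurofilament triplet fell. Nefm, the medium chain, was at 5787, 7277 and 6264 CPM at 36 h and at 10880, 10190 and 8699 CPM at 18 h. Every 36 h library was below every 18 h library. In edgeR the log2 fold change was -0.62 ± 0.12 (SE) for Nefm at an adjusted p of 0.0195, -0.58 for the heavy chain Nefh and -0.49 for the light chain Nefl. The other 4 measured genes of this list did not pass, among them Ina at 0.20, and leaving out a library raised the adjusted p of Nefm to at most 0.185.

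Kcnh7, a potassium channel of the ERG type, was at 696, 718 and 720 CPM at 36 h and at 1460, 1379 and 1099 CPM at 18 h, a fall of 0.88 log2 units at an adjusted p of 0.015 in edgeR. It was not a member of the potassium channel list, in which none of 26 passed, 23 had a negative fold change and the median was -0.29. Trpa1, the irritant-gated cation channel, was at 69.6, 73.0 and 74.5 CPM at 36 h and at 128, 127 and 104 CPM at 18 h. It fell by 0.72 and was the only member of 20 sensory transducers to pass. Scn4b, an auxiliary subunit of sodium channels, fell by 0.57, alone among 9 sodium channel genes, of which 8 had a negative fold change. Npy1r, a receptor of neuropeptide Y, fell by 0.67, and among 41 neurotransmitter receptor genes Npy1r alone was lower and Cckbr alone was higher. No gene of 10 calcium channels, 21 sensory subtype genes, 24 synaptic vesicle genes or 25 very long neuronal genes on the lists passed. Their medians were -0.18, -0.34, -0.18 and -0.29. With 0.511% of all tested transcripts called, most lists of these sizes would hold no passing member, so its absence is not a result about them. Syt2, a calcium sensor of synaptic vesicles that is outside the lists and was chosen after its values were seen, fell by 0.53 with an adjusted p of 0.0477.

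**Figure D2:**
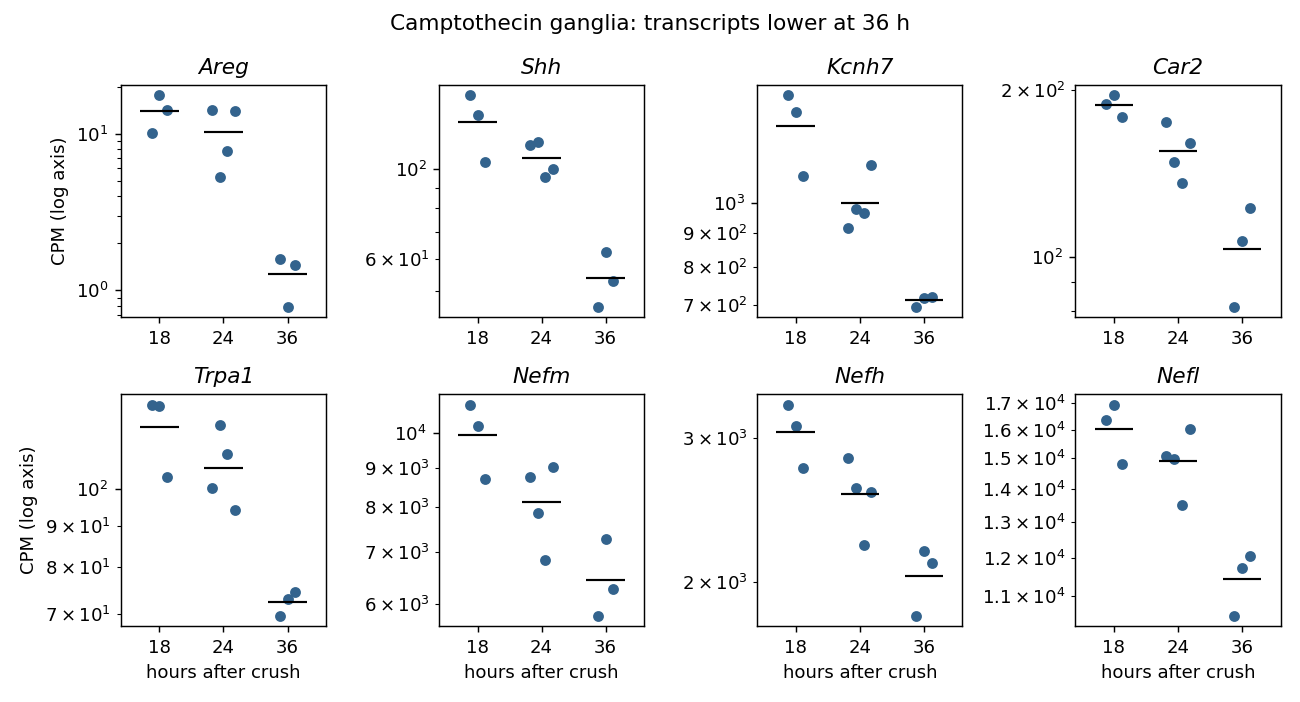
Levels in CPM, on log axes, of 8 transcripts that were lower at 36 h, in camptothecin ganglia at 18, 24 and 36 h after crush, with each point a library and each line the group mean. The 36 h libraries lie below the 18 h libraries in every panel, from Areg at 0.788 to 1.59 CPM to Nefl at 10530 to 12040 CPM.

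Marker sums moved with these groups of genes. The 9 sensory neuron markers in the list summed to 17490 to 19830 CPM at 36 h and 24200 to 27540 CPM at 18 h. Of the 9, Nefh and Nefl were lower. Nefl, Snap25 and Nefh held most of this sum, with Nefl alone at 10530 to 12040 CPM at 36 h and 14810 to 16930 CPM at 18 h. The sum thus largely repeats the levels of these genes, and a sum without them was not taken. Across the list 8 fold changes were negative (median -0.31), and Tubb3 alone was positive at 0.27. In vehicle ganglia the sum was 19650 to 24340 CPM at 36 h and 24890 to 27680 CPM at 18 h. The 9 of 12 macrophage markers that were measured summed to 167 to 237 CPM at 36 h and 75.6 to 98.6 CPM at 18 h. Of these 9 genes, 2 were higher: the mannose receptor Mrc1, at 157, 122 and 126 CPM at 36 h against 39.3, 48.2 and 73.6 CPM at 18 h, and the complement subunit C1qb, which rose by 1.32. In vehicle ganglia the same sum was 126 to 198 CPM at 36 h and 84.3 to 116 CPM at 18 h. The 8 of 10 fibroblast and meningeal markers that were measured summed to 1420 to 1849 CPM at 36 h and 837 to 1064 CPM at 18 h. In vehicle ganglia their sums overlapped, at 996 to 1372 CPM at 36 h and 814 to 1351 CPM at 18 h. In these 3 lists the camptothecin sums of the 2 times did not overlap. Skeletal muscle markers, at 5.91 to 6.82 CPM at 36 h and 0.258 to 1.803 CPM at 18 h, and spinal cord markers, at 13.9 to 18.36 CPM at 36 h and 20.2 to 23.7 CPM at 18 h, did not overlap either, and none of their members passed. Neutrophil markers were at 83.0 to 153 CPM at 36 h and, at 18 h, at 237 CPM in library 2, beside 8.71 and 27.0 CPM in the others. Satellite glia markers, at 1938 to 2368 CPM at 36 h and 1416 to 1895 CPM at 18 h, did not overlap either. Glul, the glutamine synthetase of glia, rose by 0.64 and was alone among the 8 in passing. Without it the sums were 1263, 870 and 1270 CPM at 36 h and 1217, 1044 and 682 CPM at 18 h, which overlap. Schwann cell markers, at 2067 to 3352 CPM at 36 h and 1661 to 3057 CPM at 18 h, overlapped, as did red cell markers at 4.73 to 14.5 CPM at 36 h and 6.96 to 38.7 CPM at 18 h. The part of these cell types in the gene changes was not tested.

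Genes of the extracellular matrix moved with the fibroblast sum. Of 43 measured collagens, laminins and matrix genes, 3 were higher and none lower, and the list median was 0.39. Of all tested transcripts 0.36% were higher and 0.15% lower. Lum, the collagen-binding proteoglycan lumican, was at 184, 131 and 168 CPM at 36 h and at 74.6, 74.7 and 77.5 CPM at 18 h, a rise of 1.09. Mmp2, a gelatinase, was at 45.9, 42.2 and 42.9 CPM at 36 h and at 16.6, 13.9 and 18.8 CPM at 18 h, a rise of 1.41, and Dcn, decorin, rose by 0.87. Lum and Dcn are also members of the fibroblast list. With vehicle the median of the matrix list was -0.03, and the difference between treatments passed for none of its members.

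**Figure D3:**
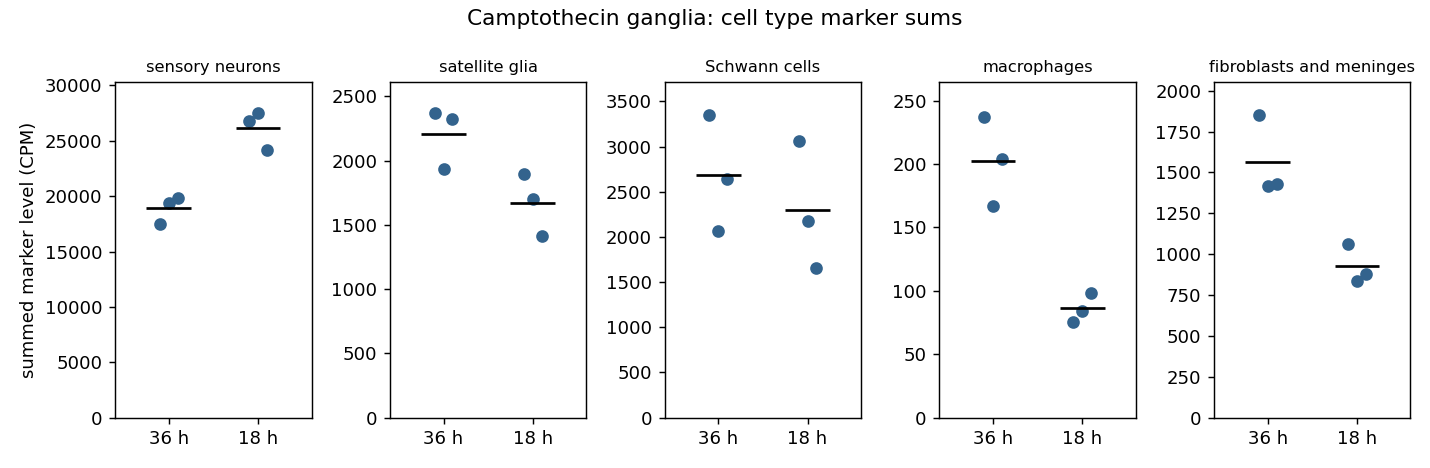
Summed level in CPM of 5 cell type marker lists in camptothecin ganglia at 36 h and 18 h after crush, with each point a library and each line the group mean, on axes that start at 0. Macrophage sums are 167 to 237 CPM at 36 h and 75.6 to 98.6 CPM at 18 h. Sensory neuron sums, mostly Nefl, Snap25 and Nefh, are 17490 to 19830 CPM at 36 h and 24200 to 27540 CPM at 18 h.

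**Figure D4:**
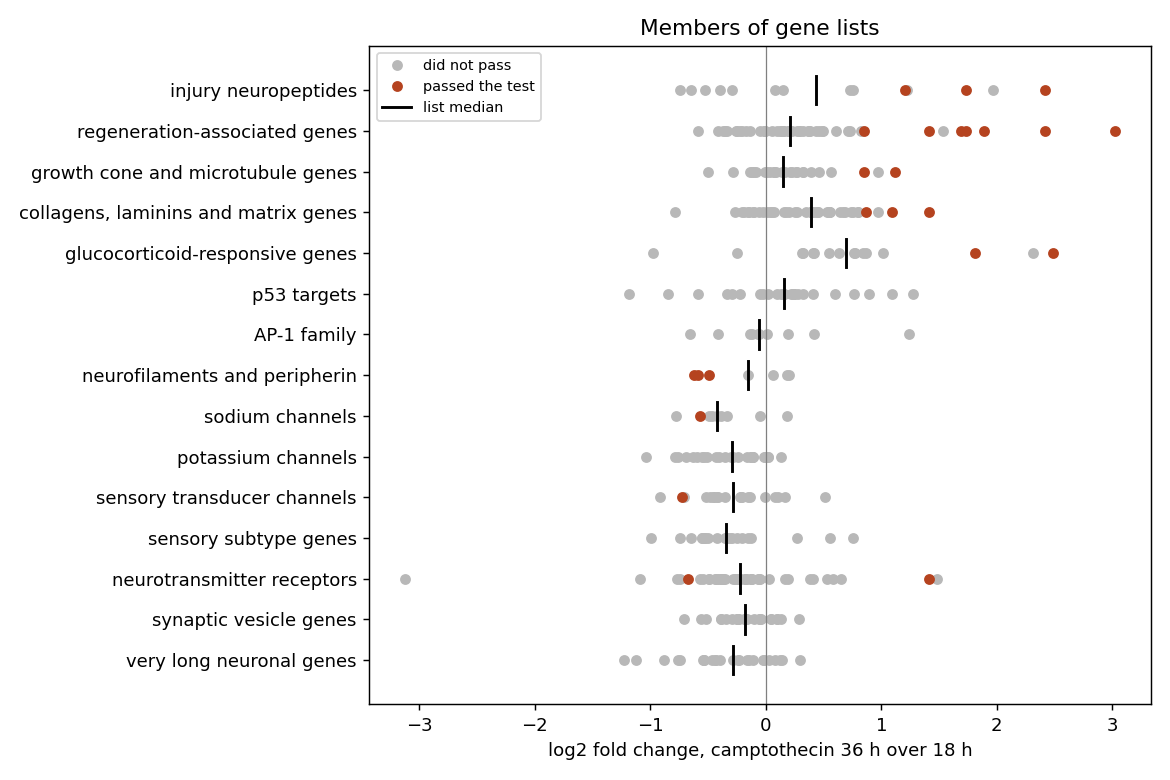
Log2 fold change of camptothecin 36 h over 18 h for measured members of 15 gene lists, with each point a transcript or gene, coloured where it passed the test, and the black line the list median. Passing members lie to the right in the regeneration, growth cone, peptide, matrix and glucocorticoid lists. They lie to the left for neurofilaments, sodium channels and transducers. Among neurotransmitter receptors Cckbr lies to the right and Npy1r to the left.

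In vehicle ganglia the same pair of times called 188 transcripts higher and 80 lower, 1.01% and 0.43% of those tested. Depth was 3714370 to 5749822 counts at 36 h and 3617718 to 4384429 at 18 h, below the camptothecin libraries. Of the 67 camptothecin rises, 49 were also called higher with vehicle, which is 73.1% of the camptothecin rises and 26.1% of the vehicle rises. Of the 28 falls, 8 were shared, which is 28.6% of the camptothecin falls and 10% of the vehicle falls. A transcript called under 1 treatment alone is not shown to differ between treatments, which the difference of the 2 changes tests. For Sprr1a, Gal and Npy the log2 change was 3.02, 2.42 and 1.73 with camptothecin and 4.50, 3.55 and 4.27 with vehicle, and the adjusted p of the difference was 0.986, 0.986 and 0.431. Npy was at 17.2 to 20.0 CPM with camptothecin and 14.7 to 20.1 CPM with vehicle at 36 h. At 18 h it was at 3.31 to 9.54 CPM with camptothecin and 0.452 to 1.17 CPM with vehicle.

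The change from 18 h to 36 h differed between treatments for 2 transcripts, 0.0107% of those tested, at an adjusted p under 0.05 (edgeR), while 921 had an unadjusted p under 0.05. Zbtb16, a zinc finger transcription factor that glucocorticoids induce, was at 32.8, 29.8 and 30.9 CPM at 36 h and at 5.29, 5.51 and 5.80 CPM at 18 h with camptothecin. With vehicle it was at 5.86, 5.89 and 7.29 CPM at 36 h and at 24.23, 22.8 and 6.33 CPM at 18 h. The camptothecin groups lay far apart, whereas 1 vehicle library at 18 h fell within the vehicle 36 h range. The camptothecin change minus the vehicle change was 3.94 ± 0.51 log2 units (SE), at an adjusted p of 0.00285 in edgeR, and stayed under the threshold without each library in turn (highest adjusted p = 0.0226). Without the low vehicle library, number 4, it was 4.36. Its transcript lies at chr9:48654297-48835945.

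Steap4, a metalloreductase induced in inflamed tissue, was at 137, 117 and 123 CPM at 36 h and at 65.0, 81.4 and 94.8 CPM at 18 h with camptothecin. With vehicle it was at 73.2, 64.8 and 59.2 CPM at 36 h and at 110, 95.5 and 102 CPM at 18 h. It was the only transcript called in opposite directions under the 2 treatments, and the difference was 1.29 ± 0.20 log2 units (SE), at an adjusted p of 0.0215 in edgeR. That call was lost without any 1 of 8 libraries, number 1 or 4 of vehicle at 18 h, 3 or 4 of vehicle at 36 h, 2 or 3 of camptothecin at 18 h and 1 or 3 of camptothecin at 36 h (highest adjusted p = 0.172), with the replicate block (adjusted p = 0.0654), with the compared libraries alone (0.0791) and with the GC offset and replicate block (0.0611). Hif3a, a hypoxia-inducible factor subunit, rose by 1.81 with camptothecin, at 19.3, 18.5 and 24.9 CPM at 36 h against 6.65, 5.71 and 5.54 CPM at 18 h, with a vehicle change of -0.53 and an adjusted p of the difference of 0.303.

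Zbtb16 and Hif3a were the 2 members of 16 glucocorticoid-responsive genes that rose with camptothecin, and none fell. Of all tested transcripts 0.36% rose and 0.15% fell. The list median was 0.70 with camptothecin and -0.08 with vehicle, against 0.02 with camptothecin over all symbols, taken as 1 transcript each. Pdk4, a kinase that restrains pyruvate oxidation, had a log2 fold change of 1.01 with an adjusted p of 0.122. The clock list had no passing member among 21 genes, and its median was -0.14. Of 26 p53 target genes none passed, and Cdkn1a, the cyclin-dependent kinase inhibitor p21, had a log2 fold change of 0.77 with an adjusted p of 0.0904. Top1, the gene of the enzyme that camptothecin traps, was at 136, 137 and 136 CPM at 36 h and at 181, 184 and 149 CPM at 18 h. Its libraries did not overlap, which held with 36 h lower for 8.75% of all tested transcripts, and its adjusted p was 0.427. None of 10 topoisomerase and adduct repair genes passed. With 0.511% of all tested transcripts called, the lack of a passing clock, p53 or topoisomerase gene is not a result about those lists.

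**Figure D5:**
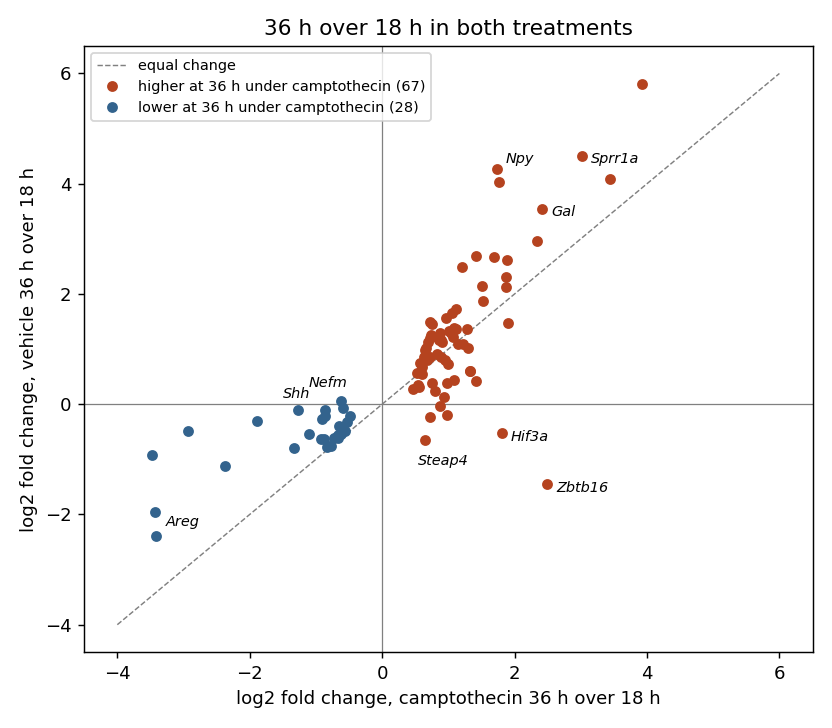
Log2 fold change of 36 h over 18 h for the 95 transcripts called under camptothecin, with camptothecin on the horizontal axis, vehicle on the vertical axis and the dashed line marking equal change. Of the 67 rises 61 lie above 0 for vehicle, and Zbtb16 and Steap4 lie below 0.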

How the data were processed

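RNA of whole ganglia was amplified from 5 ng and sequenced as paired-end libraries, per the labels' protocols. Raw counts per Ensembl transcript were deposited by the authors, with the authors' variance-stabilised values and log2 fold changes, which were not used as results. CASAVA 1.8.2, limma and the mm10 build are named in the submitters' processing notes, and no source used here names the aligner or the counter. Column letters were matched to treatments by the authors' deposited log2 fold change, which equals the difference of the column means with B as camptothecin.

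Symbols were those deposited with the counts, and positions came from GENCODE M21. Counts of 19 libraries entered 1 edgeR 4.0.16 quasi-likelihood fit with 6 group means (R 4.3.3, 13 residual degrees of freedom), after TMM scaling and a filter at 10 counts that kept 18606 of 19571 transcripts. P-values were adjusted over all of them. Alternatives used DESeq2 1.42.0, limma-voom (limma 3.58.1) and the settings in the closing section. Replicates of a group differed beyond sampling noise. Figures used matplotlib 3.10.9.

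Named genes were the 12 largest rises and 12 largest falls that passed, with libraries apart, at 5 CPM or more and not a numbered or pseudogene name (the last added later), up to 4 members by p-value of each list described, 11 fixed genes, of which Vip was not analysed here, and the 6 smallest p-values of the difference. The members and lists were chosen with earlier results of these data known.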

Additional observations from a re-analysis of the deposited data

Results flagged for a closer look

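The change between 18 h and 36 h differed between treatments for Zbtb16, by 3.94 on the log2 scale, and for Steap4, by 1.29, in the test of the difference itself by edgeR.

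Among 116 named transcripts, 6 had a 24 h camptothecin library that stood apart from the other 3, and chance marks about 1 group in 20. These were Gadd45a, a growth arrest and DNA damage gene, at 650 CPM in library 1, the MAF factor Mafk at 14.2 CPM in library 1, fibronectin Fn1 at 277 CPM in library 1, Jakmip1 at 11.6 CPM in library 4, Cckbr at 22.2 CPM in library 4 and Steap4 at 85.1 CPM in library 4. No 24 h library enters the comparison of 36 h with 18 h except through the shared estimate of spread, the filter on low counts and the TMM scaling.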

How the results depend on the processing

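All 95 camptothecin calls kept their sign in each of the 14 alternative fits that gave per-transcript values. Across named transcripts and settings, 1539 results stayed on the same side of the threshold, 129 no longer passed, 70 newly passed and 0 reversed. Of 74 named transcripts that did not pass, 23 passed in at least 1 setting, among them Jun, Fn1, Egfr, Kcnb2, Snap25, Calcb, Cntnap2 and Cdkn1a, and 20 did so with DESeq2. Camptothecin counts, higher then lower, were 210 and 173 with DESeq2, 104 and 45 with limma-voom, and 102 and 61 in a fit of the compared libraries alone. With the replicate block they were 62 and 61, and with the GC offset and replicate block 74 and 78. The lower count was 12 with log2 library total as covariate, 46 with the GC offset and 59 with counts summed per symbol. Leaving out each library in turn gave 31 to 52 higher and 5 to 32 lower. Of 42 named transcripts that passed, 15 passed without each library in turn, namely Sprr1a, Zbtb16, Gal, Tmem98, Aim1, Adgrd1, Gpr151, Areg, Abra, Shh, Car2, Gap43, Mmp2, Mrc1 and Mical2; the other 27 lost the call without at least 1 library. Vehicle counts were 375 and 196 with DESeq2, 114 and 52 with limma-voom, 65 and 12 with the compared libraries alone, and the lower count was 132 with the replicate block and 152 with the GC offset and replicate block. Leaving out each library gave 104 to 222 higher and 36 to 92 lower. The difference called 6 transcripts with DESeq2, 1 with the compared libraries alone, 1 with the replicate block and 1 to 3 when a library was left out. The cause of these changes was not tested. Replicate numbers were not used as pairs in the main fit. Only 2 numbers are shared by the camptothecin groups compared, and same-numbered libraries correlated at -0.091 and 0.135. So few pairs cannot decide whether libraries of a number belong together.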
